A study of Mus musculus with 69 samples.

Results

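The 36 genes described here carry out fatty acid oxidation in mitochondria and peroxisomes, or act on ketone bodies and fuel choice in the liver. They were taken by symbol from a list that was drawn up with earlier results of these data known. All 36 were among the 55367 gene symbols of the deposited tables, and all 36 passed the filter on low counts that left 14398 genes for testing. Mitochondrial oxidation holds 19 of them and peroxisomal oxidation 13. Bdh1 and Acat1 belong to ketone body metabolism, and Pdk4 and Ucp2 to fuel choice and proton leak.

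Liver RNA came from C57/Bl6J mice on a high-fat diet (HFD), all labelled with the genotype J1 J2 lf/lf. The groups were JNK7a (labelled CRE, 22 libraries), JNK7b (labelled FLPO, 23 libraries) and control (labelled GFP, 24 libraries), and the series describes them as mice that differ in the JNK spliceoform of their hepatocytes (JNK is a family of stress kinases, and Mapk8 and Mapk9 encode JNK1 and JNK2). Livers were taken every 3 h, at clock hours 2, 5, 8, 11, 14, 17, 20 and 23, with 2 to 4 libraries per group and hour, to compare gene expression through the day between the groups. CRE and FLPO are read here as the recombinases Cre and Flp, and GFP as the fluorescent protein. No label gives the age or sex of the mice, the way these proteins reached the liver or the exon kept in a group. Spliceoform and recombinase therefore cannot be told apart in any comparison. Nothing in the labels says that each library is 1 animal, and p-values then measure only the spread between these samples, which may be technical.

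Hepatocytes burn fatty acids by activating them to acyl-CoA, passing them into mitochondria as carnitine esters through the gate enzyme CPT1A, and shortening them in a cycle of dehydrogenation, hydration, dehydrogenation and thiolysis. Peroxisomes run a similar cycle on very long, branched and bile acid side chains and pass shortened products on. The acetyl-CoA made in fasting becomes ketone bodies, and the nuclear receptor PPARα, which binds direct repeats of the hexamer AGGTCA, is a main activator of these genes in mouse liver.

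Upstream sequences were taken from RefSeq (GRCm38.p6), as the 250 bases before a gene's start, for 30 of the 36 members (34 promoters). The sequences of 6 of them are given 5′ to 3′ on the gene's strand, because the results turn on the pairs Hao2 and Hao1 and Acaa1b and Acaa1a, because Hadhb shares its window with Hadha, and because Echs1 held a match to a direct repeat. Capitals mark a motif match, and lower case the rest.
Hao2, chr3:98893231-98893480, minus strand: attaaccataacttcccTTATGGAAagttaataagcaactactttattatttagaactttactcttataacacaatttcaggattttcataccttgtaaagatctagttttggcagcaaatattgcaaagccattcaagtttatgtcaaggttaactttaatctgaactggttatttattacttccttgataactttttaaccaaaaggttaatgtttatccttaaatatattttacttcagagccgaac
Hao1, chr2:134554353-134554602, minus strand: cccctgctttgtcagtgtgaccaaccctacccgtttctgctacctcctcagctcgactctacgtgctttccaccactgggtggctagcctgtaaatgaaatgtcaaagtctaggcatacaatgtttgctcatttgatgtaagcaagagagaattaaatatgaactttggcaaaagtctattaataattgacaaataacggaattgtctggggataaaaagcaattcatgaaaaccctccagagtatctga
Acaa1b, chr9:119157094-119157343, minus strand: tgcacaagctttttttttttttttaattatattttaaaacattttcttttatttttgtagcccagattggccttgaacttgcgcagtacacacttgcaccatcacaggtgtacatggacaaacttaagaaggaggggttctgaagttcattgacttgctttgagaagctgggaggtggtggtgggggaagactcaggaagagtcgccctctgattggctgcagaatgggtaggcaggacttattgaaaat
Acaa1a, chr9:119341044-119341293, plus strand: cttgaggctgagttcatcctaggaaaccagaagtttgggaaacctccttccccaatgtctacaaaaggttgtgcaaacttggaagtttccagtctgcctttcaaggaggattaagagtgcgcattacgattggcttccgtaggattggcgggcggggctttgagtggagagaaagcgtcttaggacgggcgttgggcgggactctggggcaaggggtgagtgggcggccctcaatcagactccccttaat
Hadhb, chr5:30155003-30155252, plus strand: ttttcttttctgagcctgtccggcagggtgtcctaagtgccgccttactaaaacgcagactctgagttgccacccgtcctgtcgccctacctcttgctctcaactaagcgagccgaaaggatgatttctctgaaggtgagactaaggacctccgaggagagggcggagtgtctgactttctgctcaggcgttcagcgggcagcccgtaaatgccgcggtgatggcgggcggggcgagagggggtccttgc
Echs1, chr7:140116422-140116671, minus strand: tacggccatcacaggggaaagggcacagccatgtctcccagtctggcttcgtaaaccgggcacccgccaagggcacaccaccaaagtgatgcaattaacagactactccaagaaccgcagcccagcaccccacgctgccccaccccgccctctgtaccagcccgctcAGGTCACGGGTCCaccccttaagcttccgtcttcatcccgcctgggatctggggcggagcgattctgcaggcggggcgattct
Hadha and Hadhb, which encode the α and β subunits of the mitochondrial trifunctional protein, start head to head on chromosome 5, with 272 bases between their starts, so 228 of their upstream bases are the same DNA. Acaa1b and Acaa1a lie 182582 bases apart on chromosome 9, at chr9:119148023-119157093 on the minus strand and chr9:119339676-119350299 on the plus strand (mm10, in the GENCODE annotation, where a start can differ from that of RefSeq). The window of Acaa1a printed above, taken before its RefSeq start, lies inside the GENCODE gene. Hao2 lies at chr3:98874521-98893239 and Hao1 at chr2:134497361-134554368, both on the minus strand. A direct repeat of 2 AGGTCA copies with 1 free base between them (DR1), searched on both strands with up to 2 mismatches, was found in 2 of the 34 promoters (5.88%), against 3.24% of all 32851 promoters of this length. The matches were AGGTCACGGGTCC in Echs1, starting 83 bases before the start, and TTACCTTTGCCCT in Etfa, 77 bases before the start. The hexamer AGGTCA, which is part of the repeat, was in 11.8% of the members' promoters and 14% of all. The D-box TTATGNAA was in 2.94%, that is in Hao2 alone, against 3.07% of all, and the E-box CACGTG in 0 of 34, against 6.02% of all. These counts describe letters in a short window and show nothing about binding.

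Library totals lay between 26.8 and 48.6 M estimated counts (M, mega; median 32.7 M). The members together made up a median of 0.825% of the TPM (a level scaled for transcript length and for the library's total) in JNK7a, 0.996% in JNK7b and 1.03% in control, with ranges of 0.686% to 0.952%, 0.731% to 1.16% and 0.737% to 1.22%. Acaa1b held the largest part of this share, at a mean of 1312 TPM in JNK7a, 2008 TPM in JNK7b and 2250 TPM in control. Transcripts encoded in the mitochondrial genome held 12.7 ± 1.05% of the TPM in JNK7a, 13.3 ± 1.23% in JNK7b and 13.8 ± 0.945% in control (SD, n = 22, 23 and 24). CPM are counts scaled to the library's total after adjustment by its TMM factor. Mapk8 averaged 14.6 ± 3.28 CPM in JNK7a, 17.7 ± 2.15 CPM in JNK7b and 17.8 ± 2.29 CPM in control, and Mapk9 41.0 ± 4.56, 56.7 ± 7.91 and 49.9 ± 10.5 CPM (SD, n = 22, 23 and 24). A gene count adds all spliceoforms, so these values check no label. Control 8 h replicate 3 stood apart, with 28 of the 36 members below the other 2 libraries of its group and hour, at a median log2 difference of -0.225, against -0.008 for all genes. Its Mapk9 value of 14.1 CPM was the lowest of all 69 libraries, beside 45.98 and 39.5 CPM in the other 2. JNK7b 5 h replicate 2 had the lowest Mapk9 value of its group, 36.45 CPM, beside 53.7 CPM in its 1 companion, while its members were split into 21 below and 15 above that companion and did not set it apart. Counts of calls are given with and without these 2 doubted libraries. Control 14 h replicate 1 and control 20 h replicate 4 also had Mapk9 values below their companions, 35.6 and 35.0 CPM. They were not left out together with the doubted libraries. The defining hepatocyte markers were abundant in every group (8 of 9 listed markers found, summed CPM at a median of 105300 in JNK7a, 86170 in JNK7b and 100200 in control). Against control, 4 of these 8 were called higher for JNK7a and 4 lower for JNK7b, and JNK7b against JNK7a had all 8 lower. Pericentral hepatocyte markers summed to medians of 10510, 7380 and 10390 CPM in the same order, where the test against control called 2 of 8 higher and 3 lower for JNK7a and 1 higher and 3 lower for JNK7b. B and plasma cell markers summed to medians of 81.4 CPM in JNK7a (21.5 to 309), 61.7 CPM in JNK7b (6.57 to 183) and 13.2 CPM in control (3.69 to 181), with 3 of 7 higher in JNK7a and 2 in JNK7b than in control. T and NK cell markers summed to medians of 5.97, 4.285 and 2.43 CPM (against control, 5 of 8 called higher for JNK7a, and 2 higher and 1 lower for JNK7b). The 5 adipocyte markers summed to 0.652, 2.25 and 9.41 CPM, and Lep was at 0 in all JNK7b libraries. Kupffer cell and macrophage markers summed to medians of 197, 208 and 155 CPM (against control, 1 of 9 called higher for JNK7a and 2 for JNK7b). The part of these shifts in the results on the members was not tested.

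To find how fatty acid oxidation genes differed in JNK7a livers over the day, JNK7a was compared with control as a mean over the 8 clock hours with edgeR's quasi-likelihood test. Of the 36 members, 24 fell and 1 rose (adjusted p below 0.05), against 11.1% lower and 9.66% higher among all tested genes. The median log2 fold change was -0.236 for the members and 0.003 for all genes, and 34 of 36 members had a negative one. Among mitochondrial genes 13 of 19 fell and none rose, at a median of -0.15. Among peroxisomal genes 7 of 13 fell and 1 rose, at a median of -0.24. Both ketone body genes and both fuel genes fell. In bulk liver RNA fewer hepatocytes and less RNA per hepatocyte cannot be told apart. The same test called 4 of the 8 hepatocyte markers up and 0 down for JNK7a. Their summed CPM had medians of 105300 in JNK7a and 100200 in control. Of 8 pericentral markers 2 were called up and 3 down, and of 8 periportal markers 2 up and 2 down. Whether the number of hepatocytes differed was not tested.

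**Figure D1:**
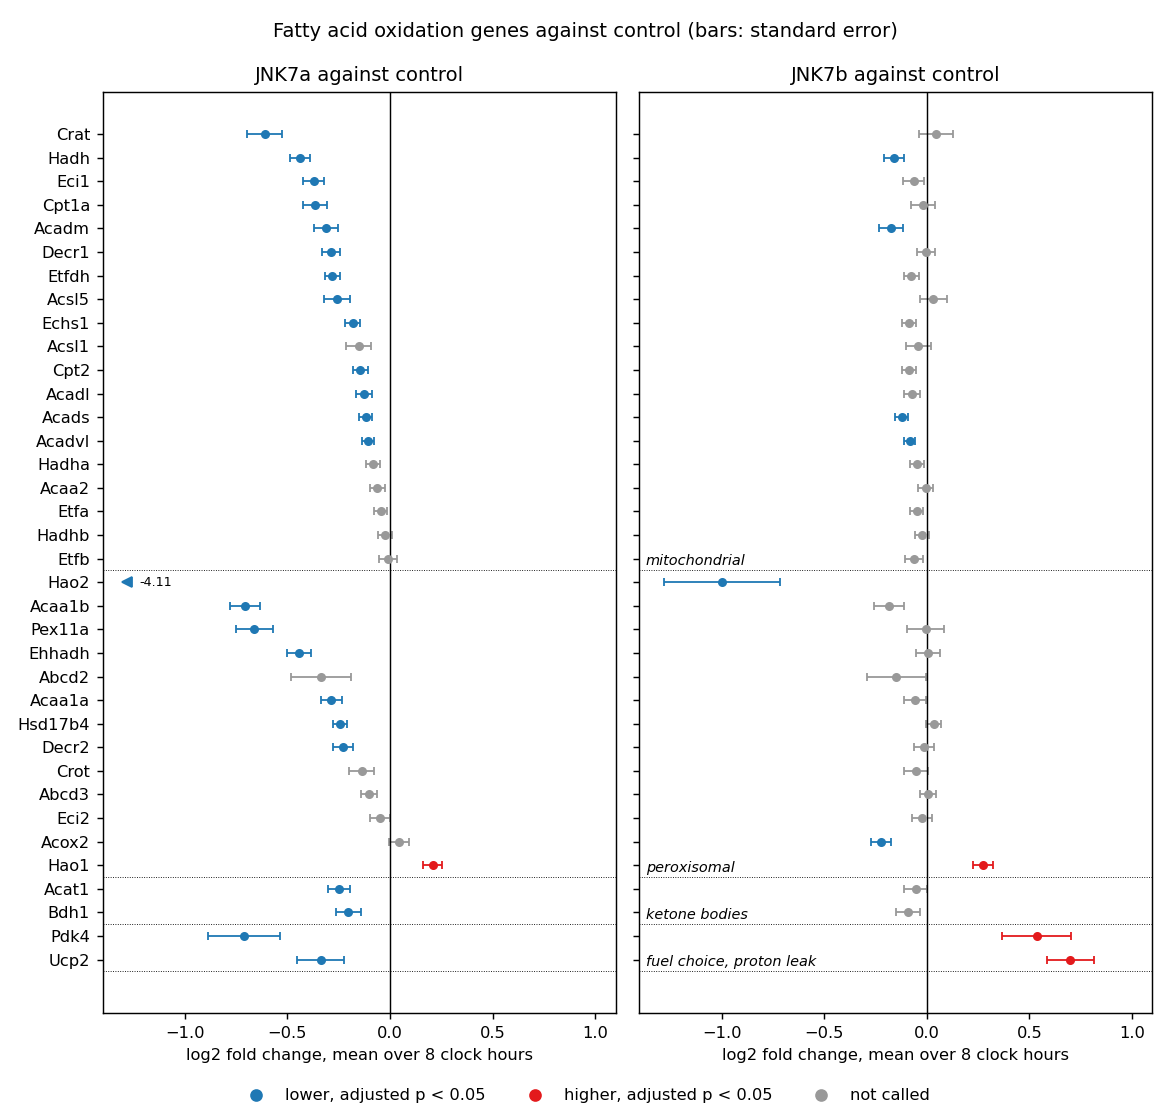
Log2 fold change over the day (x axis, mean of 8 clock hours) with its standard error for each of the 36 members (y axis), JNK7a against control on the left and JNK7b against control on the right. Blue and red mark genes called lower and higher and grey those not called. In JNK7a, 34 of 36 points lie left of 0 and the arrow stands for Hao2 at -4.11, beyond the axis, while in JNK7b most points lie close to 0.

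The carnitine acyltransferase genes of the mitochondrial list, Cpt1a, Cpt2 and Crat, fell. Cpt1a, the rate-setting carnitine acyltransferase of the outer membrane, had 245 to 656 CPM (median 438.5) in JNK7a libraries, against 345.5 to 705.5 CPM (median 580) in control libraries. Its log2 fold change was -0.365 ± 0.058 (standard error, adjusted p = 2.7e-06, negative at all 8 hours). Cpt2, the inner-membrane partner that makes acyl-CoA again, fell as well (-0.145 ± 0.036, adjusted p = 0.00229, and -0.22 with limma on log2(TPM + 0.1)). Crat, the acetyltransferase that buffers short acyl-CoA as carnitine esters, had 45.75 to 112 CPM (median 72.0) in JNK7a and 53.55 to 142 CPM (median 119) in control. Crat's log2 fold change of -0.61 ± 0.085 (adjusted p = 2.01e-07) was the largest of the 19 mitochondrial genes, and it was negative at all 8 hours. The groups overlapped for Cpt1a and for Crat, with 3 JNK7a libraries below the lowest control library for each. For Crat that library was control 8 h replicate 3, which stood apart, and the next lowest control value was 88.83 CPM (control 14 h replicate 2).

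Acsl5, which activates fatty acids mainly at the endoplasmic reticulum and outer mitochondrial membrane, had 269 to 482 CPM (median 376.5) in JNK7a and 309 to 597.5 CPM (median 432) in control. It fell by 0.26 on the log2 scale (SE 0.065, adjusted p = 0.0023). Acsl1, the main long-chain synthetase of liver, had 954 to 2134 CPM (median 1480) in JNK7a and 872 to 2308 CPM (median 1720) in control. Its log2 fold change was -0.15 (interval of 2 standard errors from -0.27 to -0.03, adjusted p = 0.0627). Without the 2 doubted libraries Acsl1 was called as well (adjusted p = 0.0491). The difference between Acsl1 and Acsl5 was not tested.

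All 4 acyl-CoA dehydrogenase genes on the list fell. Acadm, the medium-chain dehydrogenase, had 262.5 to 547 CPM (median 374.5) in JNK7a and 351.5 to 552 CPM (median 479) in control, and 7 JNK7a libraries lay below the lowest control. Its fold change was -0.31 ± 0.057 (adjusted p = 2.85e-05). The very-long-chain gene Acadvl (-0.11 ± 0.028), the long-chain gene Acadl (-0.125 ± 0.039) and the short-chain gene Acads (-0.12 ± 0.032) fell by smaller amounts, with adjusted p of 0.00384, 0.0155 and 0.004. With limma on log2(TPM + 0.1) these values were -0.18, -0.20 and -0.19. Acadvl had the smallest spread within group and hour of all 36 members, an SD of 0.086 on the log2 scale, against a median of 0.273 over all genes.

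Hadh, the short-chain hydroxyacyl-CoA dehydrogenase, had 253 to 404 CPM (median 328) in JNK7a and 282 to 537 CPM (median 465) in control, so that the log2 fold change was -0.44 ± 0.049 (adjusted p = 8.23e-10). The lowest control value of Hadh belonged to control 8 h replicate 3. Echs1, the short-chain enoyl-CoA hydratase, fell by 0.18 (SE 0.035, adjusted p = 7.04e-05), with 8 of 22 JNK7a libraries below the lowest control. The head-to-head pair Hadha and Hadhb was not called, at -0.08 (interval -0.15 to -0.01, adjusted p = 0.0739) and -0.02 (interval -0.09 to 0.045, adjusted p = 0.694). Hadha was called without the 2 doubted libraries (adjusted p = 0.0414). Acaa2, the mitochondrial thiolase and by TPM the second most abundant member in control (median 832 TPM in JNK7a and 924 TPM in control), was not called either (-0.06, interval -0.13 to 0.01, adjusted p = 0.239).

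Eci1 and Decr1 handle the double bonds of unsaturated fatty acids in mitochondria. Eci1, an enoyl-CoA isomerase, had 91.5 to 150 CPM (median 117) in JNK7a and 107 to 184 CPM (median 160) in control and fell by 0.37 (SE 0.053, adjusted p = 3.08e-07). Decr1, a dienoyl-CoA reductase, fell by 0.29 (SE 0.044, adjusted p = 1.29e-06). Etfdh, which passes electrons from the flavoprotein ETF to ubiquinone, had 223 to 334 CPM (median 262) in JNK7a and 270.4 to 374.9 CPM (median 327) in control. Its fold change was -0.28 ± 0.036 (adjusted p = 3.18e-08), and 13 of 22 JNK7a libraries lay below the lowest control. The genes of both subunits of ETF were not called, with Etfa at -0.04 (interval -0.11 to 0.02, adjusted p = 0.375) and Etfb at -0.01 (interval -0.09 to 0.08, adjusted p = 0.926). With limma on log2(TPM + 1), Etfa and Acaa2 were called lower (adjusted p = 0.00827 and 0.000137). Of the 31-base words of Etfb transcripts 49.9% also occur in other genes, most of them in Gm45233, and for Hadhb this share was 23.3%, so the counts of both are uncertain.

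In peroxisomes the largest differences were those of Hao2, Acaa1b and Pex11a. Hao2, a peroxisomal 2-hydroxyacid oxidase, had 0 to 1.48 CPM (median 0.206) in JNK7a and 1.47 to 21.9 CPM (median 4.37) in control. These are few reads, a median of 7 counts in JNK7a (1 library at 0) and 159 in control. Its log2 fold change was -4.11 ± 0.36 (adjusted p = 1.65e-12, negative at all 8 hours), and 21 of 22 JNK7a libraries lay below the lowest control. On the log2(TPM + 1) scale, which understates changes of low genes, the difference of Hao2 was -1.84 with limma. Hao1, the glycolate oxidase of the same family, had 217 to 362 CPM (median 295) in JNK7a and 213 to 329 CPM (median 264.6) in control. It rose by 0.21 ± 0.048 on the log2 scale (adjusted p = 0.000824) and was the only one of the 36 members called higher, at 0.13 with limma on log2(TPM + 0.1). By TPM, the median level in control was 167 for Hao1 and 2.855 for Hao2.

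**Figure D2:**
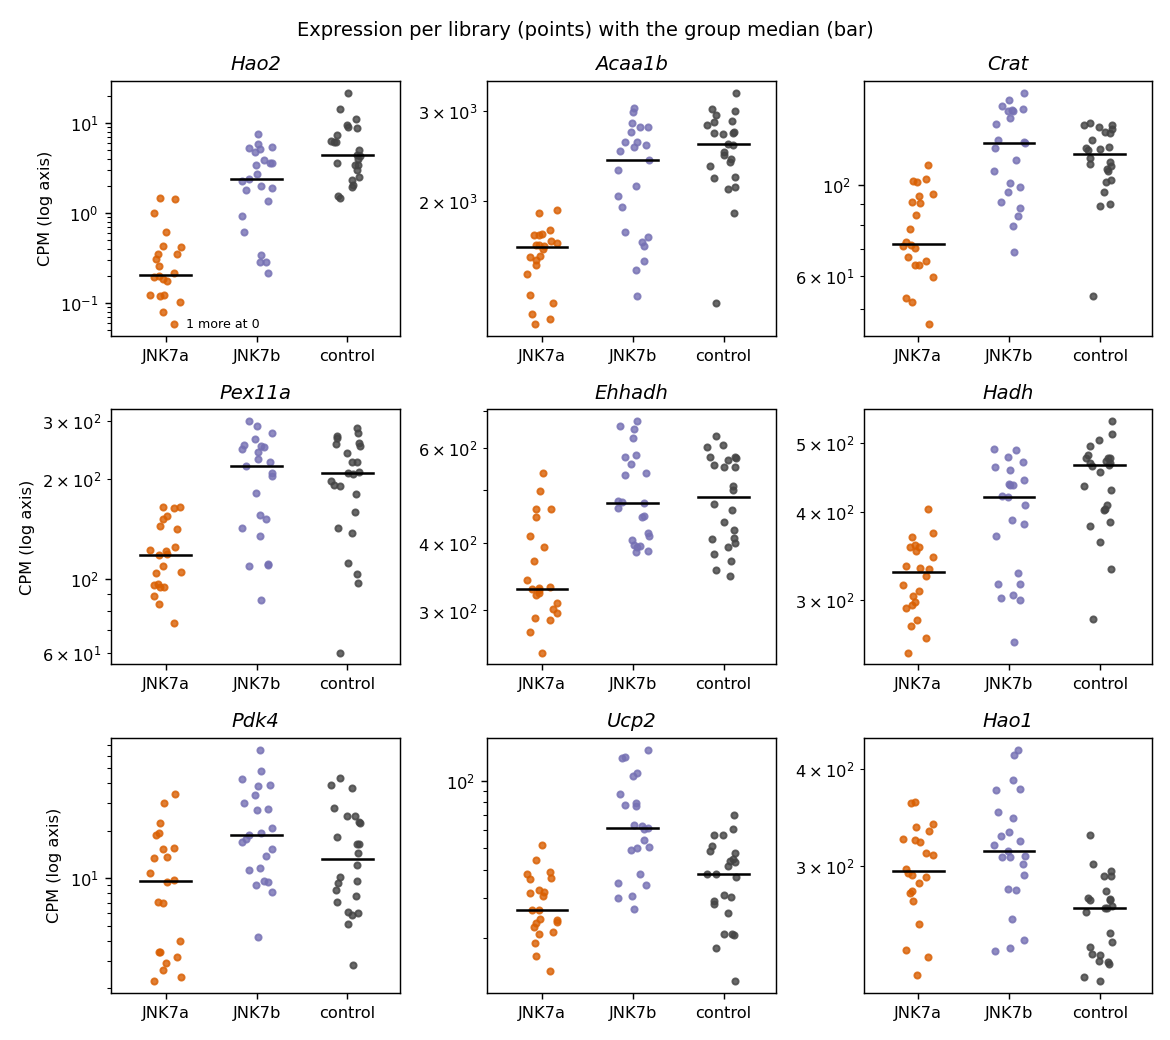
CPM of 9 members in every library (points, log axis), with JNK7a on the left, JNK7b in the middle and control on the right of each panel and the group median as a bar. For Hao2 the JNK7a median is 0.206 CPM, the JNK7b median 2.36 CPM and the control median 4.37 CPM, and 1 JNK7a library is at 0.

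Acaa1a and Acaa1b encode closely related peroxisomal 3-ketoacyl-CoA thiolases. Acaa1b, by TPM the most abundant member in each group, had 1143 to 1914 CPM (median 1618) in JNK7a and 1260 to 3260 CPM (median 2581) in control, with a fold change of -0.705 ± 0.074 (adjusted p = 1.56e-10). The value of 1260 CPM belonged to control 8 h replicate 3. Acaa1a had 103 to 288 CPM (median 187) in JNK7a and 144 to 312 CPM (median 230.5) in control, with a fold change of -0.285 ± 0.053 (adjusted p = 4.59e-05). Since 40% of the 31-base words of Acaa1b occur in Acaa1a and 16.9% of those of Acaa1a in Acaa1b, the division of reads between them is uncertain, and both fell.

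Pex11a, a membrane protein that drives peroxisome division and a PPARα target, had 73.6 to 166 CPM (median 119) in JNK7a and 59.9 to 285 CPM (median 208.5) in control. The value of 59.9 CPM belonged to control 8 h replicate 3. The fold change of Pex11a was -0.66 ± 0.09 (adjusted p = 1.21e-07). Ehhadh, the bifunctional enzyme of straight chains, had 250.5 to 538 CPM (median 329) in JNK7a and 347 to 630 CPM (median 486) in control, and fell by 0.44 (SE 0.06, adjusted p = 1.12e-07), with 14 of 22 JNK7a libraries below the lowest control. Hsd17b4, the multifunctional enzyme that also takes branched chains and bile acid precursors, fell by 0.24 (SE 0.035, adjusted p = 3.78e-07). All 3 had negative differences at all 8 hours.

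Of the remaining 6 peroxisomal genes only Decr2 was called. Decr2, the peroxisomal dienoyl-CoA reductase, fell by 0.23 (SE 0.049, adjusted p = 0.000313), like its mitochondrial counterpart Decr1. Eci2, the peroxisomal counterpart of Eci1, was not called (-0.05, interval -0.15 to 0.05, adjusted p = 0.545), and 13.6% of its 31-base words occur in other genes. The transporter genes Abcd2 and Abcd3, which bring very-long-chain and branched acyl-CoA into peroxisomes, were not called either, at -0.34 (interval -0.62 to -0.05, adjusted p = 0.0946) and -0.10 (interval -0.18 to -0.02, adjusted p = 0.0616). Abcd2 had 19.1 to 70.7 CPM in JNK7a and 16.2 to 74.2 CPM in control, and Abcd3 606 to 1075 CPM and 552 to 1169 CPM, so no JNK7a library lay below the lowest control library for either. The lowest control value of Abcd2 belonged to control 8 h replicate 3. Without clock hour 8 Abcd2 was called lower (-0.446, adjusted p = 0.0328). Crot, the carnitine octanoyltransferase that exports shortened chains (-0.14, interval -0.26 to -0.02, adjusted p = 0.0937), and Acox2, the oxidase of bile acid precursors (0.045, interval -0.055 to 0.15, adjusted p = 0.592), were not called. Abcd3 was called without the 2 doubted libraries (adjusted p = 0.0387) and under 6 of the other 17 alternatives.

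Acat1, the mitochondrial acetoacetyl-CoA thiolase, fell by 0.25 (SE 0.055, adjusted p = 0.000571), and Bdh1, which interconverts the ketone bodies acetoacetate and β-hydroxybutyrate, by 0.20 (SE 0.06, adjusted p = 0.00976). Pdk4, the kinase that shuts pyruvate out of oxidation, had 2.215 to 34.3 CPM (median 9.58) in JNK7a and 2.82 to 43.05 CPM (median 13.3) in control, with a fold change of -0.71 ± 0.175 (adjusted p = 0.00185). Ucp2, a mitochondrial carrier linked to proton leak, had 14.3 to 51.7 CPM (median 26.6) in JNK7a and 12.8 to 70.0 CPM (median 38.3) in control. Its fold change of -0.34 ± 0.12 (adjusted p = 0.0298) was lost under 6 of 18 alternatives, and on leaving out JNK7a 2 h replicate 1, JNK7a 5 h replicate 2, JNK7a 20 h replicate 1, control 2 h replicate 2, control 8 h replicate 1, control 14 h replicate 1 or control 17 h replicate 2 (adjusted p at most 0.0764). Without clock hour 17 it was -0.22. Bdh1 and Acadl lost their calls without clock hour 5 (adjusted p = 0.0806 and 0.0918), and Acadvl and Acads with no filter on low counts (0.101 and 0.058). Without the 2 doubted libraries 27 members were lower and 1 higher, as they were without control 8 h replicate 3 alone, an alternative chosen after seeing the data.

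JNK7b was compared with control in the same way, and 9 members passed the test. Of the 36, 3 rose (Hao1, Pdk4 and Ucp2) and 6 fell (Acadvl, Acadm, Acads, Hadh, Acox2 and Hao2), against 6.59% higher and 6.85% lower among all tested genes. The median log2 fold change was -0.05 for the members and -0.005 for all genes. Of the mitochondrial genes 4 of 19 fell, and of the peroxisomal genes 1 rose and 2 of 13 fell. Without the 2 doubted libraries 2 were higher and 6 lower.

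Ucp2 had the largest rise. It had 26.95 to 137 CPM (median 61.3) in JNK7b and 12.8 to 70.0 CPM (median 38.3) in control, a fold change of 0.70 ± 0.115 (adjusted p = 1.24e-05), and 9 of 23 JNK7b libraries lay above the highest control. Pdk4 had 4.23 to 65.5 CPM (median 18.9) in JNK7b and 2.82 to 43.05 CPM (median 13.3) in control. Its fold change of 0.535 ± 0.169 (adjusted p = 0.0258) was lost under 10 of 18 alternatives, among them limma voom (adjusted p = 0.0574) and the fit without the 2 doubted libraries (0.066), and on leaving out JNK7b 8 h replicate 3, JNK7b 11 h replicate 1 or JNK7b 17 h replicate 1 (at most 0.0764). Hao1 had 233 to 423 CPM (median 313) in JNK7b and 213 to 329 CPM (median 264.6) in control, and 8 of 23 JNK7b libraries lay above the highest control. It rose by 0.275 ± 0.048 (adjusted p = 2.86e-05), with a positive difference at all 8 hours.

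Hao2 had 0.2135 to 7.53 CPM (median 2.36) in JNK7b, against 1.47 to 21.9 CPM (median 4.37) in control, and 7 of 23 JNK7b libraries lay below the lowest control. Its log2 fold change was -0.998 ± 0.28 (adjusted p = 0.0118), and it was not called without clock hour 23 (-0.78, adjusted p = 0.104). Acox2 had 94.1 to 208 CPM (median 150) in JNK7b and 145.5 to 239 CPM (median 178.5) in control, a fold change of -0.22 ± 0.05 (adjusted p = 0.00108), and 11 of 23 JNK7b libraries lay below the lowest control. Hadh (-0.16 ± 0.049, adjusted p = 0.0207), Acadm (-0.17 ± 0.057, adjusted p = 0.0312), Acads (-0.12 ± 0.032, adjusted p = 0.00480) and Acadvl (-0.08 ± 0.028, adjusted p = 0.0369) fell by small amounts. Acads had 120 to 183.5 CPM (median 146) in JNK7b and 144 to 185.5 CPM (median 161) in control, with 9 of 23 JNK7b libraries below the lowest control. Acadvl lost its call under 9 alternatives and in 16 of the fits that left out a library (adjusted p at most 0.0869), and Acadm under 8 and in 7 (JNK7b 2 h replicate 3, 5 h replicate 1, 8 h replicate 1, 11 h replicate 1, 14 h replicate 1 and 17 h replicate 1, and control 8 h replicate 1, at most 0.0687). Of the 9 calls only those of Ucp2, Hao1 and Acox2 held under all 18 alternatives and in all 69 fits that left out a library.

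JNK7b and JNK7a were compared directly. Of 36 members, 19 were higher and 1, Acox2, lower in JNK7b, against 10.9% higher and 11.4% lower among all tested genes. The median log2 fold change was 0.16 for the members and -0.005 for all genes. Higher in JNK7b were 8 of 19 mitochondrial and 8 of 13 peroxisomal genes, Acat1, Pdk4 and Ucp2. Without the 2 doubted libraries 18 were higher and 1 lower. Both comparisons with control use the same control libraries, so their values are given side by side.

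Pdk4 had 4.23 to 65.5 CPM (median 18.9) in JNK7b and 2.215 to 34.3 CPM (median 9.58) in JNK7a, which gave 1.25 ± 0.178 on the log2 scale (adjusted p = 3.92e-07). Ucp2 had a fold change of 1.04 ± 0.12 (adjusted p = 2.20e-09), with 14 of 23 JNK7b libraries above the highest JNK7a. Both were higher in JNK7b at all 8 hours. Hao2 had the largest fold change (3.11 ± 0.35, adjusted p = 1.78e-09), with 16 of 23 JNK7b libraries above the highest JNK7a, and it was 1.125 with limma on log2(TPM + 1). Crat (0.66 ± 0.087, adjusted p = 5.75e-08), Pex11a (0.655 ± 0.091, adjusted p = 2.12e-07), Acaa1b (0.52 ± 0.075, adjusted p = 2.92e-07) and Ehhadh (0.45 ± 0.062, adjusted p = 1.19e-07) followed. Hsd17b4 had 564 to 793 CPM (median 655.5) in JNK7b and 468 to 613 CPM (median 535) in JNK7a. Its fold change was 0.28 ± 0.036 (adjusted p = 3.45e-08), and 19 of 23 JNK7b libraries lay above the highest JNK7a library, the most of any member. Cpt1a was higher by 0.35 ± 0.059 (adjusted p = 9.28e-06). Echs1 and Abcd3 (adjusted p = 0.0448 and 0.0436) lost their calls under 8 and 6 of 18 alternatives, and in 23 and 22 of the 69 fits that left out a library (adjusted p at most 0.0927 and 0.0937). Their fold changes of 0.096 and 0.109 lay between 0.063 and 0.163 and between 0.055 and 0.177 under the alternatives.

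Values of JNK7b against control stand beside those of JNK7a against control as follows, and the 2 comparisons share their control libraries. The log2 fold change of Crat was 0.05 (interval -0.12 to 0.21, adjusted p = 0.794) in JNK7b and -0.61 in JNK7a. That of Ehhadh was 0.01 (interval -0.11 to 0.13, adjusted p = 0.968) in JNK7b and -0.44 in JNK7a. For Pex11a, which drives peroxisome division, it was -0.006 (interval -0.18 to 0.17, adjusted p = 0.983) in JNK7b and -0.66 in JNK7a. Hsd17b4 had 0.03 (interval -0.04 to 0.10, adjusted p = 0.611) in JNK7b and -0.24 in JNK7a, and Cpt1a had -0.02 (interval -0.13 to 0.10, adjusted p = 0.902) in JNK7b and -0.365 in JNK7a. The thiolase gene Acaa1b, at -0.18 (interval -0.33 to -0.04, adjusted p = 0.0913) in JNK7b and -0.705 in JNK7a, was not called in JNK7b against control, although the unadjusted interval lay below 0. The dehydrogenase gene Acads, at -0.12 in each comparison with control, differed by -0.004 (interval -0.07 to 0.06) between JNK7b and JNK7a.

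The comparisons were next made at each clock hour, where 2 to 4 libraries per group give less precision. JNK7a was lower than control in 4, 5, 0, 0, 6, 1, 5 and 3 members at clock hours 2, 5, 8, 11, 14, 17, 20 and 23, against 1.50%, 2.48%, 0.0417%, 0.111%, 1.73%, 0.257%, 1.02% and 0.611% of all tested genes. No member was called higher at any single hour, where all tested genes gave 1.08%, 1.74%, 0.00695%, 0.139%, 1.48%, 0.174%, 0.806% and 0.403%. The median log2 fold change of the members was negative at each hour, from -0.32 at clock hour 23 to -0.075 at clock hour 8. The control at clock hour 8 holds a library that stands apart, and its part in this value was not tested. Acaa1b was called at clock hours 2, 5, 14 and 20 (-0.93, -0.82, -0.74 and -0.91), Hadh at 2, 14 and 23 (-0.66, -0.45 and -0.55) and Hao2 at 5, 14, 17, 20 and 23 (-3.62 to -6.10). Crat was lower by most at clock hour 20 (-1.18 ± 0.26, adjusted p = 0.00971). Ehhadh was called at clock hours 14 and 20 (-0.82 and -0.69) and Pex11a at clock hour 5 (-0.86).

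**Figure D3:**
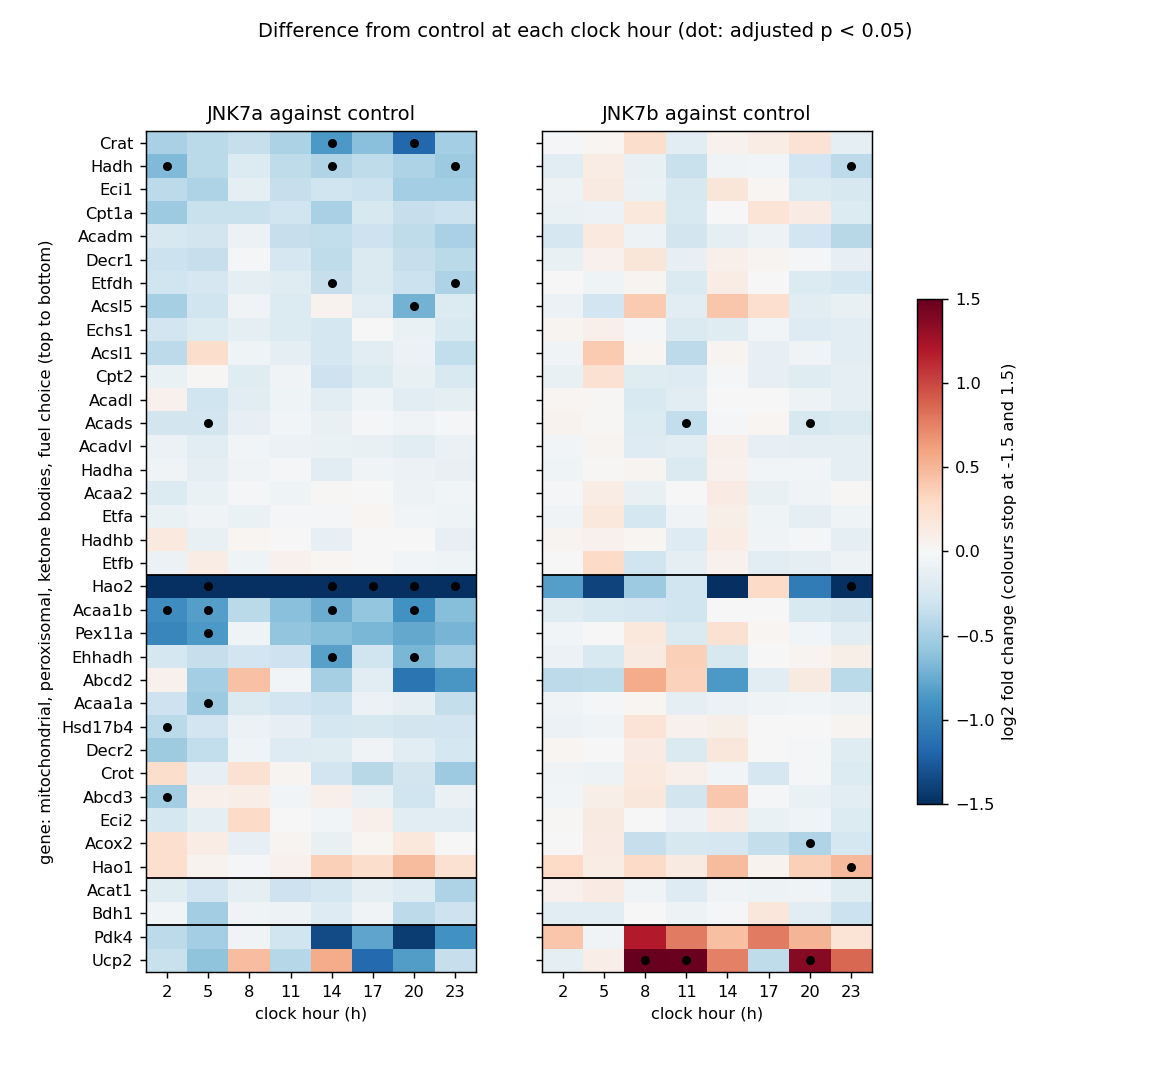
Log2 fold change of the 36 members (rows) at each of the 8 clock hours (columns), JNK7a against control on the left and JNK7b against control on the right, blue for lower and red for higher, with a dot where the adjusted p is below 0.05. Dots in JNK7a lie at every hour but 8 and 11 and all mark lower values. In JNK7b 4 dots mark higher values, 3 of them those of Ucp2 at clock hours 8, 11 and 20, and 5 dots mark lower values.

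In JNK7b against control, 4 values were called higher and 5 lower, in 4 of the 8 hours. Of all tested genes, 2.23%, 1.79%, 2.16% and 2.60% were higher and 1.91%, 1.44%, 2.06% and 2.53% lower at clock hours 8, 11, 20 and 23. At clock hours 2, 5, 14 and 17, which called no member, these shares were 0%, 0.0139%, 0.146% and 0% higher and 0%, 0%, 0.104% and 0% lower. Ucp2 gave 3 of the higher values, at clock hours 8, 11 and 20, and Hao1 the other at clock hour 23 (0.49 ± 0.123, adjusted p = 0.0108). Lower were Acads at clock hours 11 and 20, Acox2 at clock hour 20, and Hadh and Hao2 at clock hour 23. Between JNK7b and JNK7a 14 values were higher and 2 lower. Of all tested genes 1.29%, 0.00695%, 2.46%, 1.70%, 0.0556%, 0.799%, 2.86% and 2.28% were higher from clock hour 2 to 23, and 1.04%, 0%, 2.21%, 1.55%, 0.0208%, 0.507%, 2.63% and 2.06% lower. Ucp2 was higher at clock hours 8, 11, 20 and 23 (1.11, 1.91, 2.20 and 1.205) and Ehhadh at 11, 20 and 23 (0.67, 0.73 and 0.61). The 2 lower values were Acads at clock hour 11 and Acox2 at clock hour 20.

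Whether a difference varied with clock hour was tested jointly over the 8 hours. Ucp2 was called in JNK7b against control (adjusted p = 0.0115), where 1.72% of all tested genes were called. Its mean in JNK7b was 60.4 ± 14.3 CPM at clock hour 8, 69.35 ± 12.2 at 11 and 123.5 ± 13.85 at 20 (SD, n = 3, 2 and 4), against 20.4 ± 8.97, 24.9 ± 4.02 and 48.0 ± 14.4 CPM in control at the same hours (n = 3, 3 and 4). At clock hours 2 and 17 the JNK7b means of 42.6 ± 18.1 and 42.2 ± 17.5 CPM stood below the control means of 47.3 ± 14.2 and 55.0 ± 13.5 CPM (n = 3 each in JNK7b, and 2 and 3 in control). The log2 fold change of Ucp2 thus ranged from -0.38 at clock hour 17 to 1.57 at clock hour 8. JNK7b libraries of Ucp2 all lay above the control libraries at clock hours 8, 11, 20 and 23, as those of 9.46%, 19.5%, 5.53% and 9.17% of all tested genes did at these hours. At clock hour 23 they had 62.6 to 108 CPM in JNK7b, against 43.2 to 48.6 CPM in control, and the difference there was not called (adjusted p = 0.0829).

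In JNK7b against JNK7a the difference varied with clock hour for Acads (adjusted p = 0.00567) and Ucp2 (adjusted p = 0.0408), against 2.19% of all tested genes. Acads had 170 ± 8.48 and 167 ± 4.38 CPM in JNK7b at clock hours 2 and 5, against 136 ± 14.1 and 136.5 ± 18.8 CPM in JNK7a (SD, n = 3 and 2 in JNK7b, and 2 and 3 in JNK7a). At clock hours 11 and 20 it had 124 ± 5.10 and 135 ± 16.1 CPM in JNK7b, against 155 ± 11.2 and 155 ± 0.753 CPM in JNK7a (SD, n = 2 and 4 in JNK7b, and 3 and 2 in JNK7a). The log2 fold change of Acads ran from -0.325 at clock hour 11 to 0.325 at clock hour 2, while its mean over the day was -0.004. In JNK7a against control no member was called (lowest adjusted p = 0.304, Ucp2, and 3 members at an unadjusted p below 0.05), where 0.00695% of all tested genes were. The call of Ucp2 between JNK7b and JNK7a was lost under 6 of 16 alternatives, leaving out the 2 doubted libraries among them (adjusted p = 0.0621), and in 18 of 69 fits that left out a library (at most 0.135). That of Acads was lost under 4 alternatives (at most 0.249), and that of Ucp2 between JNK7b and control without clock hour 17 (0.0783).

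**Figure D4:**
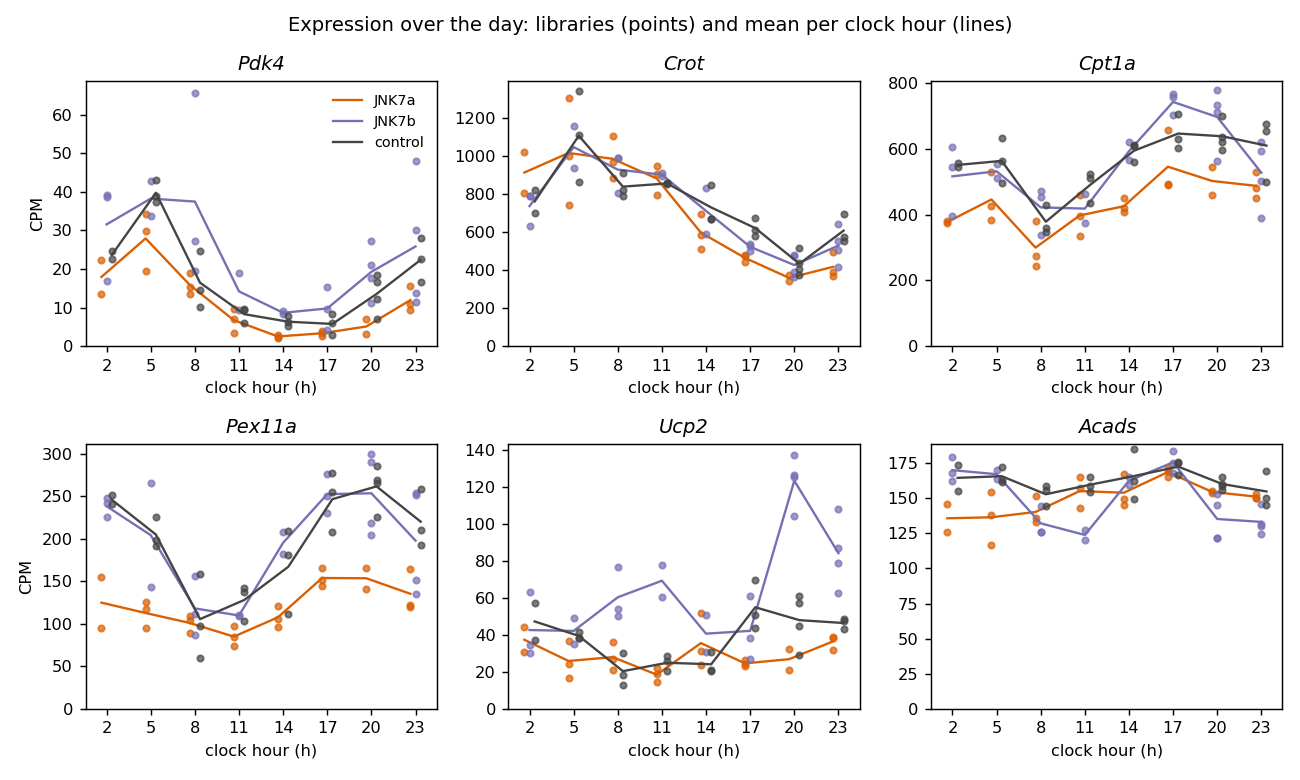
CPM (y axis) against clock hour (x axis) for 6 members, with 1 point per library and a line through the mean of each hour, JNK7a in orange, JNK7b in purple and control in dark grey. The means of Crot are lowest at clock hour 20 in every group, and Ucp2 in JNK7b is highest at clock hour 20, at a mean of 123.5 CPM.

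Rhythm over the day was tested with a 24 h cosine in each group. In JNK7a 14 members were rhythmic, in JNK7b 9 and in control 17, against 26.2%, 17.0% and 23.6% of all tested genes. Peroxisomal genes made up 7, 5 and 8 of these, and mitochondrial genes 5, 2 and 7. Without the 2 doubted libraries the counts were 16, 12 and 14. Rhythmic in all 3 groups were 7 members, Acsl1, Cpt1a, Acaa1a, Crot, Pex11a, Abcd3 and Pdk4, and rhythmic in none were 15. The shares of all tested genes rhythmic in all 3 groups or in none were not computed, so these counts describe the members alone.

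Pdk4 had the largest amplitude, 1.63 ± 0.137 in JNK7a, 1.01 ± 0.219 in JNK7b and 1.32 ± 0.155 in control (log2, mean to peak, with standard error), with fitted peaks at clock hours 4.0, 3.7 and 2.9. Its mean was 27.9 CPM in JNK7a, 38.2 CPM in JNK7b and 39.7 CPM in control at clock hour 5, and 2.49, 8.63 and 6.32 CPM at clock hour 14. Crot had amplitudes of 0.75 ± 0.076, 0.60 ± 0.059 and 0.50 ± 0.068, with peaks at clock hours 7.4, 7.7 and 7.5. Pex11a peaked at clock hours 20.9, 20.8 and 21.5 with amplitudes of 0.36, 0.48 and 0.58. Cpt1a peaked at 19.7, 18.6 and 19.9 with amplitudes of 0.30, 0.34 and 0.275, and Acaa1a near clock hour 18 in each group (17.8, 18.5 and 18.2). Acsl1 peaked close to midnight, at clock hours 23.5, 23.6 and 22.5.

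**Figure D5:**
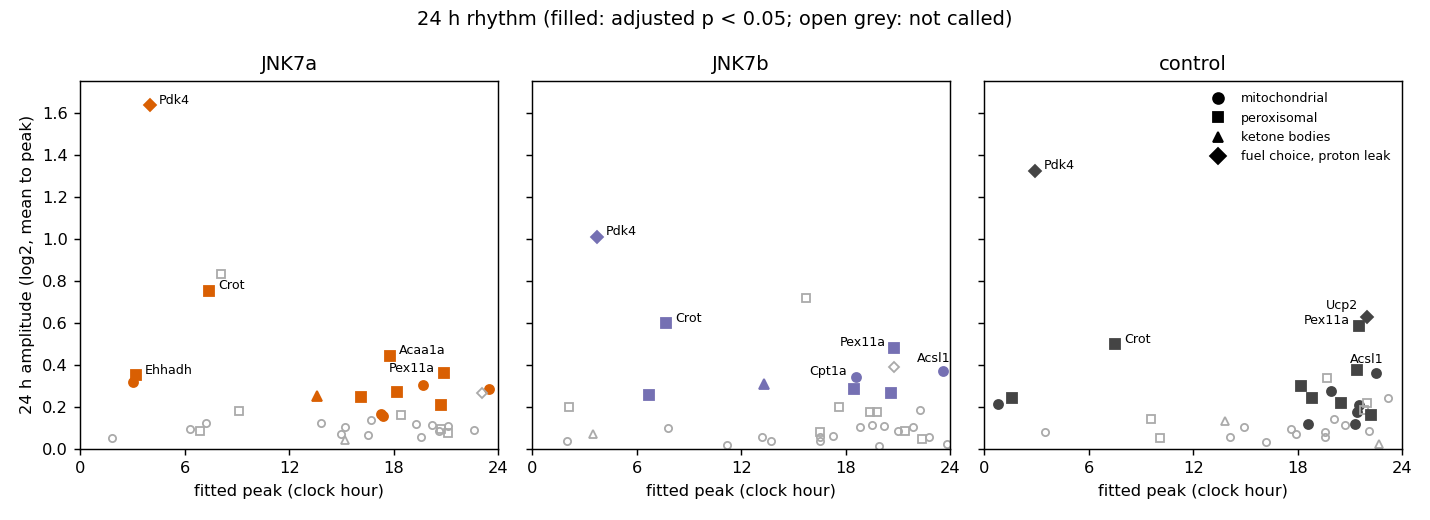
Amplitude of the 24 h rhythm (y axis, log2, mean to peak) against the fitted peak hour (x axis) of the 36 members, with JNK7a on the left, JNK7b in the middle and control on the right. Filled symbols are rhythmic at an adjusted p below 0.05, and open grey ones are not called. Pdk4 stands alone at an amplitude over 1 with a peak between clock hours 2.9 and 4.0, while most other rhythmic members peak after clock hour 16.

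Ehhadh was rhythmic in JNK7a (0.35 ± 0.051, peak at clock hour 3.2) and control (0.24 ± 0.069, peak at 1.6), and Bdh1 in JNK7a (0.25, peak at 13.6) and JNK7b (0.31, peak at 13.3). Ucp2 was called in control alone (0.63 ± 0.12, peak at 22.0), and its rhythm was not called different between groups. The difference of rhythm was called for no member in any comparison by edgeR, or under any of 16 alternatives, limma voom among them. The lowest adjusted p was 0.877 for JNK7a against control (Crot), 0.93 for JNK7b against control (Acox2) and 0.872 for JNK7b against JNK7a (Echs1), and 1, 2 and 2 members had an unadjusted p below 0.05. Among all tested genes 0.00695%, 0% and 0% were called. As a check of the clock hours, Dbp peaked at clock hours 16.5, 16.5 and 15.9 in JNK7a, JNK7b and control and Arntl at 4.1, 4.1 and 3.7.

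Genes of the same pathways outside the 36 were described with the same fits. Among all tested genes, 11.1% were lower and 9.66% higher in JNK7a than in control. For JNK7b against control these shares were 6.85% lower and 6.59% higher, and for JNK7b against JNK7a 11.4% lower and 10.9% higher. Of 19 tested genes of PPARα, its coactivators and known targets, 12 were lower and 1 higher in JNK7a than in control, at a median log2 fold change of -0.35, and the comparison of JNK7b with JNK7a called 12 higher and 2 lower, at a median of 0.42. In JNK7b against control 3 were higher and 2 lower. Cyp4a14, a fatty acid hydroxylase, averaged 393 ± 348.6 CPM in JNK7a, 960.5 ± 326 CPM in JNK7b and 888.5 ± 228 CPM in control (SD, n = 22, 23 and 24), with log2 fold changes from edgeR of -1.41 ± 0.16 for JNK7a against control (adjusted p = 1.97e-09) and 1.51 ± 0.162 for JNK7b against JNK7a (adjusted p = 4.97e-10). Vnn1, a pantetheinase gene and PPARα target, fell in JNK7a (-1.12 ± 0.14), as did the thioesterase gene Acot1 (-0.92 ± 0.089).

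Of 30 tested genes of other mitochondrial acyl-CoA metabolism, 15 were lower and 4 higher in JNK7a than in control (median -0.14), 11 lower and 2 higher in JNK7b than in control (median -0.11), and 8 higher and 4 lower in JNK7b than in JNK7a (median 0.05). The shares over all tested genes, here and for the lists below, were 11.1% lower and 9.66% higher for JNK7a against control. They were 6.85% lower and 6.59% higher for JNK7b against control, and 11.4% lower and 10.9% higher for JNK7b against JNK7a. Acot2, a mitochondrial thioesterase, fell in JNK7a (-1.64 ± 0.16, adjusted p = 2.78e-11), as did Acsm3, a medium-chain acyl-CoA synthetase (-0.48 ± 0.057), and Acot13, another thioesterase (-0.43 ± 0.059). Of 44 other peroxisomal genes 16 were lower and 5 higher in JNK7a than in control, at a median of -0.01. Acot4, a peroxisomal thioesterase in mouse, fell (-1.05 ± 0.12), whereas Nudt7, a hydrolase of peroxisomal coenzyme A, rose to 520 ± 177.5 CPM in JNK7a, against 281 ± 114 CPM in control (0.93 ± 0.11, adjusted p = 3.95e-09). In JNK7b 10 of the 44 were lower and 1 higher than in control, and 9 were higher and 12 lower than in JNK7a, at a median of -0.03. Of 6 other ketone body genes 3 fell in JNK7a, the monocarboxylate transporter genes Slc16a7 (-0.78 ± 0.11), Slc16a1 (-0.37 ± 0.068) and Slc16a6 (-0.51 ± 0.10). Slc16a6 rose in JNK7b against control (0.47 ± 0.098, adjusted p = 0.000402).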

How the data were processed

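Liver RNA of 69 libraries was sequenced as poly(A) RNA, paired-end, per the labels' protocols. The authors deposited estimated counts per gene and TPM per gene, made with cutadapt and Salmon on mm10 per the submitters' processing notes, with no version stated there. Estimated counts were rounded, the 234 table lines that share a symbol were summed by symbol, and 14398 genes were kept by edgeR's filter. Totals were 26.8 to 48.6 M per library, and few reads limit Hao2.

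TMM-scaled counts were fitted in edgeR 4.0.16 (R 4.3.3) by quasi-likelihood with 24 group and hour means (45 residual degrees of freedom). Contrasts weighted the 8 hours equally. Rhythm was tested in edgeR as a 24 h cosine (60 residual degrees of freedom). Amplitudes, their standard errors and peak hours came from a separate linear fit of that cosine to log2 CPM in each group. P-values were adjusted over all genes by Benjamini-Hochberg, at 0.05. Intervals are 2 standard errors. The fit was tested on simulated data. Alternatives used limma 3.58.1, DESeq2 1.42.0 (day means only), other scalings and filters, left-out hours and libraries, and a replicate block.

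The members and lists were chosen with earlier results of these data known. Ranges per library were given by rule for the 6 members with the smallest p per comparison, those whose difference varied with hour, and related pairs. Those of Cpt1a, Acadm and Pdk4, and the curve of Crot, were chosen after their values were seen. In the other lists the 3 called genes with the smallest p could be named. Replicate numbers did not pair samples across groups. No replicate pair of a group and hour was as close as sampling noise (chi-square per degree of freedom at least 21.7).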

Additional observations from a re-analysis of the deposited data

Results flagged for a closer look

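In groups of 4 libraries, 4 values of members lay far from the other 3 of their group and hour, of 108 such groups looked at, and chance alone flags about 1 in 20. Acox2 had 94.11 CPM in JNK7b 20 h replicate 2, where the others had 131.2 to 137 CPM. In control 20 h replicate 4, Acox2 had 238.6 CPM (others 146.5 to 148.3) and Hadh 495.4 CPM (others 465.8 to 469.1). Acadl had 294.1 CPM in control 20 h replicate 2, where the others had 240.6 to 246.7 CPM. Acox2 remained called in JNK7b against control in every fit that left out a library.

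By edgeR's quasi-likelihood test of an interaction with clock hour, 3 differences were called as varying over the day. They were that of Ucp2 in JNK7b against control (adjusted p = 0.0115), that of Acads in JNK7b against JNK7a (adjusted p = 0.00567) and that of Ucp2 in JNK7b against JNK7a (adjusted p = 0.0408). Of all tested genes 1.72% were called in JNK7b against control and 2.19% in JNK7b against JNK7a. None of these calls held under every alternative, as described above.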

How the results depend on the processing

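No called fold change of a member reversed under any of 18 alternatives or 69 fits that left out a library, and the calls of 20 of 25 members in JNK7a against control, 3 of 9 in JNK7b against control and 18 of 20 in JNK7b against JNK7a held in all of them. The number called was 22 to 31 under the alternatives for JNK7a against control (24 to 28 on leaving out a library), 4 to 11 for JNK7b against control (6 to 10) and 18 to 26 for JNK7b against JNK7a (18 to 22). In JNK7b against control, 5 members were called in place of 9 with limma on log2(TPM + 1) or log2(TPM + 0.1), with no filter, with a replicate block, and without clock hour 20 or 23, and 4 without clock hour 11. The replicate block called 25 in JNK7a against control and 19 in JNK7b against JNK7a. Same-numbered libraries of different groups did not deviate together (2 of 62 pairs with a correlation over 0.1), so the block rests on a shared number alone. For differences that vary with hour, JNK7b against control gave 0 in place of 1 without clock hour 17 (1 to 2 on leaving out a library), and JNK7b against JNK7a gave 1 in place of 2 with either TPM scale, with the replicate block, without clock hour 2, 11, 14 or 20 and without the 2 doubted libraries, and 0 with no filter (1 to 3 on leaving out a library). Rhythmic members numbered 9 in place of 17 in control without clock hour 8, and 9 in place of 14 in JNK7a without clock hour 17. The cause of these changes was not tested. Rhythm fits without an hour held fewer libraries. For day means and differences that vary with hour, all 69 libraries stayed in the fit and the hour was left out of the contrast. The median over all genes moved to at most -0.044 between scalings. Depth limits Hao2, at a median of 7 counts in JNK7a.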
